A study of Mus musculus with 16 samples.

Results

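The comparison described here sets the neural epithelium of the midgestation mouse head against the facial tissue beside it. It used 6 of the 16 libraries of a study of early craniofacial development in CD1 mice, chosen by stage and tissue label. Of these, 3 were E10.5 neural epithelium, from the regions named lateral prominence, central and dorsal control, and 3 were E10.5 facial tissue (labelled lateral nasal prominence, mandibular arch and maxillary arch). E gives the embryonic day, and no mutant, transgene or treatment was used in either class. The labels do not say how many embryos were pooled. Each region had 1 library of total RNA, so the regions of a class stand in for replicates. The p-values below therefore measure the spread between regions, which may be technical as well as regional. The library labelled medial nasal prominence, also E10.5, was left out of the fit for its brain genes, and it is described at the end. Fits on 3 libraries of E8.5 neural epithelium and 3 of E9.5 mesenchymal tissue, which share no library with the E10.5 comparison, serve to describe the same genes at earlier stages.

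At this stage the neural epithelium is a polarised, dividing sheet of progenitors held in that state by Sox and Notch factors, from which the first neurons leave. The nasal prominences and branchial arches are mostly loose mesenchyme derived from cranial neural crest and mesoderm, which lays down collagen-rich matrix, is crossed by vessels and blood, and is covered by a thin ectoderm. Crest cells that enter the face switch off neural and epithelial genes and switch on the Twist, Prrx, Msx and Alx families of transcription factors. In bulk tissue, fewer cells of a type and less RNA per cell cannot be told apart, and this holds for every difference below.

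The deposited values were ratios of each gene to its own median over the 16 libraries, so they compare libraries for 1 gene and do not compare genes. The level of a gene, as used below, is how many times its smallest deposited value over the 16 libraries a library holds. Of the 15876 genes, 8794 shared their lowest value between libraries, and this shared value is called the floor. Levels are listed in the order lateral prominence, central and dorsal control for neural epithelium, and lateral nasal prominence, mandibular arch and maxillary arch for facial tissue. Log2 differences are neural epithelium minus facial tissue after each library's median shift was removed (0.14 to 0.33 in neural epithelium and -0.40 to 0.01 in facial tissue), so they are set against the median gene. Of the genes with a floor, 63.8% to 72.4% stood at it in the neural libraries and 74.3% to 81.5% in the facial libraries. The column headers of 2 neural libraries go against their labels: the library labelled central has the header of the dorsal control, and the library labelled dorsal control has the header of the central one. The library labelled dorsal control had Nkx2-1, a factor of the ventral forebrain, at 101 and Pax6, a factor of the dorsal forebrain and eye, at its floor. Zic1, a dorsal neural factor, was also highest in that library among the neural ones, so these genes do not settle its region. Both libraries are on the same side of the comparison, so class differences do not turn on the header conflict, but their regional names do. Of the 4 class markers, Otx2 and Sox2 stood above the floor in 3 of 3 neural libraries, and Twist1 and Prrx1 in 3 of 3 facial libraries. Otx2 was also above the floor in the maxillary arch (1.78) and Prrx1 in the central neural library (1.2). Sox2 and Twist1 were at the floor throughout the other class. Genes were tested only if above the floor in at least 3 of the 6 libraries, so for Sox2 and Twist1 that filter fixed the count.

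A gene was called when its Benjamini-Hochberg adjusted p was under 0.05 in limma and its difference was at least 2-fold. Of 9512 genes tested, 247 were higher in neural epithelium (2.6% of those tested) and 338 were lower (3.55%). The remaining 6364 genes were above their floor in fewer than 3 of the 6 libraries and were not tested. At an unadjusted p under 0.05 there were 2254 genes. The median log2 difference was 1.79 over the genes called higher, -1.83 over those called lower and -0.05 over all tested. Of 376 tested genes at the floor in all 3 facial libraries and above it in all 3 neural ones, 65 were called higher. Of 138 tested genes with the reverse arrangement, 96 were called lower. The filter passes such genes through the class in which they are high, so their presence among the calls is partly fixed by it. Among the 7267 genes above the floor in all 6 libraries, 140 were called higher and 160 lower. The split between directions depended on the scaling: with the ratios as deposited 910 genes were higher and 183 lower, a share of 83.3% higher against 42.2% here. With quantile normalization it was 384 higher and 284 lower, or 57.5% higher. All 247 genes called higher here kept their call with the ratios as deposited, and 182 of the 338 called lower did.

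Among the large differences were those of the class markers. Ckb, brain-type creatine kinase, which buffers ATP, stood at 54.5, 42.7 and 22.9 in neural epithelium and at the floor in all 3 facial libraries. It was at least 13.9-fold higher in neural epithelium (log2 difference 4.77 ± 0.52 SE, adjusted p = 0.00256). Otx2, a homeodomain factor of the forebrain and midbrain, stood at 23.6, 39.8 and 93.5 in neural epithelium against 1, 1 and 1.78 in facial tissue (4.73 ± 0.54, adjusted p = 0.00283). Before the median shift was removed, the levels of both genes in the lowest neural library were more than 10 times those of any facial library. After it was removed, the gap between the lowest neural and the highest facial library was 3.11 on the log2 scale for Otx2, which is under 10-fold. Prrx1, a homeodomain factor of limb and facial mesenchyme, stood at 1, 1.2 and 1 in neural epithelium and at 26.7, 51.7 and 41.5 in facial tissue (-5.65 ± 0.46, adjusted p = 0.0013). Twist1, a basic helix-loop-helix factor needed for cranial mesenchyme, was at the floor in all 3 neural libraries and stood at 25.5, 20.2 and 21.7 in facial tissue. After the shift, neural epithelium was at least 27.8-fold lower for it (-4.95 ± 0.29, adjusted p = 0.000407). As deposited, its lowest facial level was 20.2 times the floor, so this bound depends on the shift. Its 3 facial levels lay within a narrow band, whereas Prrx1 was lowest in the lateral nasal prominence.

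The promoters of these 4 genes are shown because their transcripts mark the classes: Prrx1 and Twist1 are the markers of facial mesenchyme, Otx2 is one of those of neural epithelium, and Ckb leads the genes plotted as higher there. Each is the 250 bases before the first start that RefSeq lists on GRCm38.p6, written 5′ to 3′ on the strand of the gene. The study's processing notes name mm9, a different build, so these positions are not the study's coordinates. Ckb lies at chr12:111672339-111672588 on the minus strand and Otx2 at chr14:48667645-48667894 on the minus strand, where RefSeq lists 4 starts. Prrx1 lies at chr1:163313651-163313900 on the minus strand and Twist1 at chr12:33957421-33957670 on the plus strand. Capitals mark the TATA box core TATAAA, the CCAAT box, the homeodomain core TAATTA and the Sox core ACAAAG, on either strand.
Ckb: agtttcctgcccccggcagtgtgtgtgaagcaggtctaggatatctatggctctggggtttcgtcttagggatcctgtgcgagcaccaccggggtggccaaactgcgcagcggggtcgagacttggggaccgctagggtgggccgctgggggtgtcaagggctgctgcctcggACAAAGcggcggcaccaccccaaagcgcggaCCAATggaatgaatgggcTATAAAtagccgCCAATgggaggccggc
Otx2: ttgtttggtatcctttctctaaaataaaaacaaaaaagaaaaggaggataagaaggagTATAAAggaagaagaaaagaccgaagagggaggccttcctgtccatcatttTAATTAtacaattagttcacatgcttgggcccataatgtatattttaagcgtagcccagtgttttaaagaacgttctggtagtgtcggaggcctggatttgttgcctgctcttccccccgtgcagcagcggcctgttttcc
Prrx1: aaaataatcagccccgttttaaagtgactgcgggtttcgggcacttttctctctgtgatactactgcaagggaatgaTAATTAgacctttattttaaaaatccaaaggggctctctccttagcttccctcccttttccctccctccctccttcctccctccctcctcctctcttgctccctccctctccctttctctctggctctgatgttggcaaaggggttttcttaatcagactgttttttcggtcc
Twist1: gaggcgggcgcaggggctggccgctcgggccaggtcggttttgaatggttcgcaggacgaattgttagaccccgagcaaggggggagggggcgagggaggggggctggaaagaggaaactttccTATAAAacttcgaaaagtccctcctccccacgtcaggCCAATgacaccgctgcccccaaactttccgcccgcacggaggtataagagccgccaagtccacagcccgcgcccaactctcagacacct
Among 27025 genes with such a window, 13% hold TATAAA, 34.5% CCAAT, 4.9% TAATTA and 16.5% ACAAAG. The Ckb window holds TATAAA close to the start with CCAAT on both sides of it, and the windows of Otx2 and Prrx1 each hold 1 TAATTA. A match describes letters and is not a bound site. Only 76% of the symbols called higher and 66.2% of those called lower had a window, so a comparison of motif shares between the sets would be void and none was made.

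**Figure D1:**
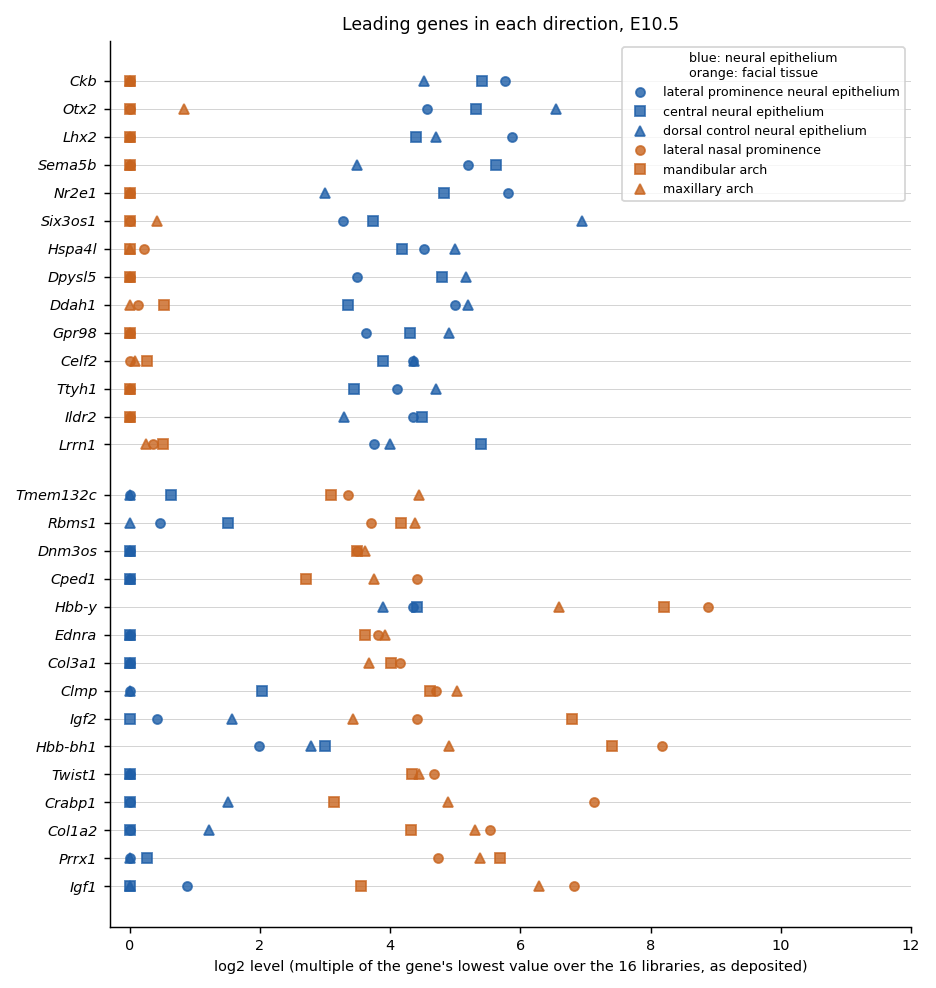
Log2 level of genes with the largest called differences in each direction, 1 point per E10.5 library (blue, neural epithelium; orange, facial tissue; shapes, regions). By the rule that chose the genes, the 3 libraries of one class lie above the 3 of the other. Twist1, Ednra and Col3a1 are at 0 (their floor) in all 3 neural libraries.

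The neural progenitor list holds genes that mark or maintain neural progenitors. All 18 were measured and 15 tested. Of these, 8 were called higher in neural epithelium and 0 lower, against 2.6% and 3.55% of all tested genes. These shares are the background for the counts of every list below. The list's median log2 difference was 2.39. Sox2, which maintains neural progenitors, stood at 17.8, 10.2 and 21.6 in neural epithelium and at the floor in all 3 facial libraries, at least 7.02-fold higher (3.51 ± 0.37, adjusted p = 0.00222). Nes, the intermediate filament nestin, stood at 14.9, 19.2 and 24.4 in neural epithelium and at 1.89, 1.21 and 1.05 in facial tissue (3.37 ± 0.34, adjusted p = 0.00208). Neither gene overlapped between the classes, but calling favours such genes and no share over all tested genes is at hand. Notch1, the receptor that holds progenitors back from differentiation, stood at 12.4, 12.1 and 29.3 in neural epithelium and at 1.77, 1.44 and 1 in facial tissue (3.12 ± 0.37, adjusted p = 0.00306). Gpr98, a very large adhesion receptor, stood at 12.4, 19.8 and 30.1 in neural epithelium and at the floor in facial tissue, at least 8.08-fold higher (adjusted p = 0.00157). Sox21, Cdh2, Vim and Msi1 were also called higher, with log2 differences of 3.08, 2.39, 1.85 and 1.83. Of the 6 fits that left out 1 library, the call of Msi1 held only in that without the maxillary arch, and that of Vim only in those without the maxillary arch or the dorsal control. Vim, which mesenchyme also makes, had levels of 53.8, 45 and 26.1 in neural epithelium against 8.23, 6.67 and 9.38 in facial tissue. The other 7 tested members did not pass. Fabp7, a fatty acid binding protein of radial glia, had 22.6, 39 and 45.1 in neural epithelium and the floor in facial tissue, yet an adjusted p of 0.172. Pax6 had 43.8 and 66.6 in the lateral prominence and central libraries and its floor in the dorsal control, with an adjusted p of 0.324.

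Notch signalling genes followed in part. Of 13 tested genes of the proneural and Notch list, 4 were called higher in neural epithelium and 0 lower, with a list median of 1.12. Scaled as deposited, 7 were called higher. Dll1, a Notch ligand on newborn neurons, stood at 7.57, 5.33 and 14.5 in neural epithelium and at the floor in facial tissue, at least 3.68-fold higher (2.60 ± 0.37, adjusted p = 0.00649). Dtx4, a ubiquitin ligase of the Deltex family, stood at 5.33, 7.39 and 6.51 in neural epithelium and at the floor in facial tissue, at least 3.47-fold higher (adjusted p = 0.00306). Dtx4 was even across the neural regions, whereas Dll1 was highest in the library labelled dorsal control. The Notch targets Hey1 (log2 difference 1.62) and Nrarp (1.65) also passed. The call of Nrarp was lost when any 1 of the 6 libraries was left out, and that of Hey1 without the lateral nasal prominence or the lateral prominence neural epithelium.

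Forebrain and eye factors were uneven across the neural regions. Of 11 tested members, 6 were called higher in neural epithelium and 0 lower, with a list median of 2.63. Lhx2, a LIM-homeodomain factor of cortex and eye, stood at 58.5, 21 and 26 in neural epithelium and at the floor in facial tissue, at least 14.5-fold higher (4.52 ± 0.40, adjusted p = 0.00158). Nr2e1, an orphan nuclear receptor of neural stem cells, stood at 56.4, 28.5 and 8.02 in neural epithelium and at the floor in facial tissue (4.09 ± 0.72, adjusted p = 0.0164). It was lowest in the dorsal control, where Six3, a forebrain and eye factor, was highest. Six3 stood at 15.3, 6.56 and 66.1 in neural epithelium and at 1, 1 and 1.79 in facial tissue (3.49, adjusted p = 0.0286). Six3os1, its antisense neighbour, shared that pattern (9.71, 13.3 and 124 in neural epithelium against 1, 1 and 1.34 in facial tissue, adjusted p = 0.0274), but the strand of the libraries is not given, so reads of the pair cannot be told apart. The calls of Nr2e1 and Six3os1 were lost without the lateral nasal prominence, the mandibular arch or the central library, and that of Six3 without either of those facial libraries or the lateral prominence neural epithelium. Some genes that were high in 1 neural library did not pass. Nkx2-1 had 1.98, 3.91 and 101 in neural epithelium and 1.41, 1 and 2.38 in facial tissue (adjusted p = 0.365). Zic1, a dorsal neural factor, had 3.65, 14.3 and 61.3 in neural epithelium and the floor in facial tissue (adjusted p = 0.132). Of the midbrain and hindbrain list, 13 genes were measured, 2 tested and 0 called. En1, En2, Pax5, Gbx2 and Hoxa2 were at the floor in all 6 libraries.

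**Figure D2:**
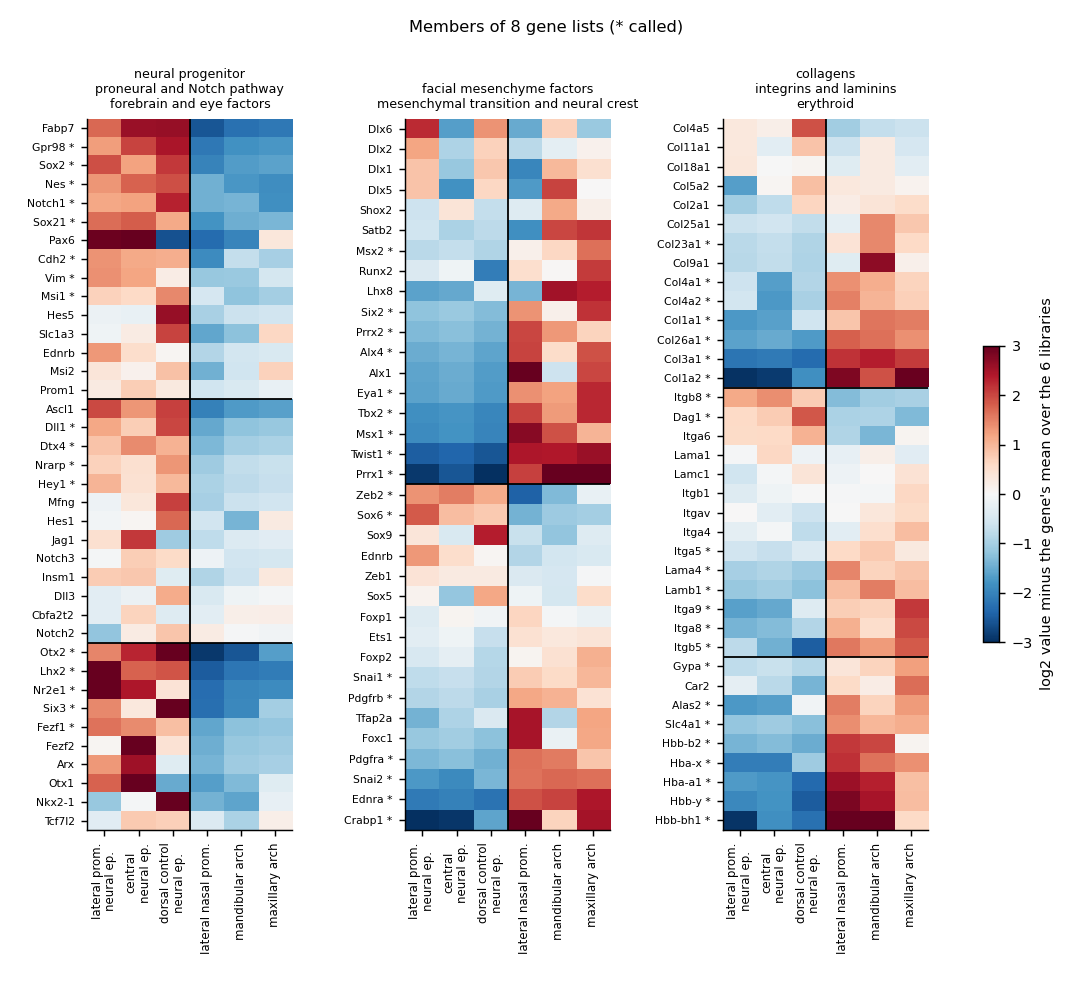
Log2 value of tested members of 8 gene lists in the 6 libraries, after removal of each library's median shift and with the gene's mean over the 6 subtracted (red, above the mean; blue, below; the scale ends at 3 either way). The vertical line divides neural epithelium (left) from facial tissue (right), and an asterisk marks a called gene, as for 8 of the 15 neural progenitor genes.

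Genes of early neurons and of the neuronal cytoskeleton gave further calls. Of 21 tested early neuron genes, 5 were called higher in neural epithelium and 1 lower, with a list median of 1.50, and 18 had an unadjusted p under 0.05. The count depended on the scaling: 15 were called higher with the ratios as deposited and 12 with quantile normalization, and 1 lower in each. Elavl2, an RNA-binding protein of neurons, stood at 5.38, 7.65 and 5.85 in neural epithelium and at the floor in facial tissue, at least 3.5-fold higher (adjusted p = 0.0049). Stmn2, a microtubule regulator of growing axons, stood at 5.19, 5.81 and 9.9 in neural epithelium and at the floor in facial tissue, at least 3.37-fold higher (adjusted p = 0.00422). Of the 5 higher calls, only these 2 were kept whichever library was left out. Dpysl3 (2.19) lost its call without the lateral nasal prominence, the maxillary arch, the lateral prominence or the central library. Crmp1 (1.58) lost its call without the lateral nasal prominence or the central library. Tubb3, a tubulin of neurons, had 4.02, 2.01 and 5.27 in neural epithelium and the floor in facial tissue and did not pass (adjusted p = 0.0547). Ebf3, a factor of both neurons and mesenchyme, was the 1 member called lower. It had 1, 3.26 and 1 in neural epithelium and 6.05, 21.1 and 4.5 in facial tissue (adjusted p = 0.0409). This call was lost without the lateral nasal prominence, the mandibular arch, the lateral prominence or the dorsal control library. Of 32 early neuron genes with a floor, 5 to 16 stood at it in the neural libraries and 26 to 30 in the facial ones. The list summed to levels of 106 to 150 in neural epithelium and 51.4 to 63.4 in facial tissue. A summed level counts each gene as at least 1 and leans on genes with high levels. Ebf3 alone gave 21.1 in the mandibular arch.

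The list of microtubule and vesicle machinery had 29 tested genes, 7 called higher in neural epithelium and 0 lower (median 0.50). The ratios as deposited gave 12 higher calls. Dpysl5, a collapsin response mediator protein of growing neurites, stood at 11.2, 27.8 and 36 in neural epithelium and at the floor in facial tissue, at least 7.25-fold higher (4.02 ± 0.47, adjusted p = 0.00306). Map1b, a microtubule-associated protein of axons, stood at 11.8, 10.2 and 7.6 in neural epithelium and at 1.71, 1.1 and 1.02 in facial tissue (2.50 ± 0.28, adjusted p = 0.00282). The kinesin Kif21a had 36.1, 42.4 and 9.1 in neural epithelium against 1.61, 1.47 and 3.02 in facial tissue (3.18 ± 0.63, adjusted p = 0.0247). Map1b was even across the neural regions, while Kif21a was lowest in the dorsal control and lost its call without the lateral nasal prominence, the mandibular arch, the lateral prominence or the central library. Scg3, Tubb4a, Kif1a and Tubb2b were called too, with log2 differences of 2.35, 2.32, 1.92 and 1.92. When 1 library was left out, the calls of Scg3 and Tubb2b held only without the dorsal control, and that of Tubb2b was also lost with quantile normalization. The call of Tubb4a was lost without the lateral nasal prominence or the central library.

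RNA-binding factors moved in both directions. Of 37 tested rows of splicing and RNA-binding factors, 5 were called higher in neural epithelium and 3 lower, with a list median of 0.25. With the ratios as deposited these counts were 10 and 1. Celf2, a splicing and RNA stability factor of brain and heart, stood at 20.4, 14.8 and 20.7 in neural epithelium and at 1, 1.2 and 1.06 in facial tissue (3.62 ± 0.32, adjusted p = 0.00157). Nova1, a splicing factor of neurons, stands on 2 rows, and both were called higher (log2 differences 2.70 and 2.12), with Khdrbs3 (2.11) and Qk (1.62). Rbms1, which binds single-stranded nucleic acid, went the other way, with 1.38, 2.85 and 1 in neural epithelium and 13.1, 17.9 and 20.8 in facial tissue (-3.89 ± 0.50, adjusted p = 0.00443). Its relative Rbms3 (-1.39) and Mbnl1, which drives mature splicing in muscle (-1.42), were also called lower. When 1 library was left out, the call of Rbms3 held only without the maxillary arch and that of Mbnl1 only without the lateral prominence neural epithelium, and both were lost with the ratios as deposited. The calls of Qk and of the Nova1 row with the smaller difference were lost without the lateral nasal prominence or the mandibular arch, and that of Khdrbs3 without the lateral prominence or the central library.

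Among the leading genes of neural epithelium were several outside regional patterning. Hspa4l, a heat shock protein of the Hsp110 family, stood at 23, 18.1 and 31.8 in neural epithelium and at 1.17, 1 and 1 in facial tissue (4.02 ± 0.28, adjusted p = 0.000722). Ddah1, which breaks down an inhibitor of nitric oxide synthesis, stood at 31.8, 10.2 and 36.6 in neural epithelium and at 1.09, 1.44 and 1 in facial tissue (3.83 ± 0.45, adjusted p = 0.00306). Leading genes were chosen for classes that do not overlap, so that trait of both genes was fixed in advance. Ddah1 was lowest among the neural libraries in the central one. Ttyh1, a membrane protein of neural progenitors, stood at 17.2, 10.9 and 26 in neural epithelium and at the floor in facial tissue, at least 7.52-fold higher (adjusted p = 0.0072). Ildr2, an immunoglobulin-domain membrane protein, stood at 20.4, 22.4 and 9.78 in neural epithelium and at the floor in facial tissue, at least 5.93-fold higher (adjusted p = 0.00691). The calls of Ttyh1 and Ildr2 were lost without the lateral nasal prominence or the mandibular arch. Phf21b, which carries a PHD finger, was one of 3 called members of 48 tested chromatin genes and stood at 10.4, 9.35 and 8.34 in neural epithelium and at the floor in facial tissue, at least 5.06-fold higher (adjusted p = 0.00157). The others were Ring1, a Polycomb protein (log2 difference 1.99), and Sall1, a zinc finger factor (1.99). The call of Ring1 was lost without the lateral nasal prominence or the central library, and that of Sall1 also without the mandibular arch or the lateral prominence.

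Of the facial mesenchyme list, 30 genes were measured and 19 tested, of which 10 were called lower in neural epithelium and 0 higher, with a median of -2.43. Msx1, a homeodomain factor of the growing prominences, was at the floor in all 3 neural libraries and stood at 20.9, 9.46 and 4.84 in facial tissue, so neural epithelium was at least 7.01-fold lower (-3.77 ± 0.40, adjusted p = 0.00236). Tbx2, a T-box repressor, was at the floor in neural epithelium and stood at 12.7, 5.98 and 11.2 in facial tissue, at least 8.22-fold lower in neural epithelium (adjusted p = 0.00745). Msx1 was highest in the lateral nasal prominence, and Tbx2 was lowest in the mandibular arch. Eya1, a transcriptional co-activator of placode and arch development, was at the floor in neural epithelium and stood at 6.82, 4.79 and 9.51 in facial tissue. Neural epithelium was at least 6.58-fold lower for it (adjusted p = 0.00236). Alx4, Prrx2, Six2 and Msx2 were called lower as well, with log2 differences of -2.99, -2.67, -2.43 and -1.61. The calls of Tbx2, Alx4, Six2 and Msx2 were lost without any 1 of the 3 neural libraries, that of Six2 also without the lateral nasal prominence and that of Msx2 also without the mandibular arch.

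The same list held genes that both classes used. Dlx1, Dlx2, Dlx5 and Dlx6, known in arch patterning and in forebrain interneurons, were not called (log2 differences 0.34, 0.64, -0.22 and 1.29). Dlx5 had 6.8, 1 and 6.16 in neural epithelium and 1, 10.4 and 2.45 in facial tissue. Dlx6 had 15.7, 1 and 9.13 in neural epithelium and 1, 3.71 and 1 in facial tissue. For both genes the libraries labelled central neural epithelium and lateral nasal prominence were at the floor. Alx1, a factor of the upper face, had the floor in neural epithelium and 27.1, 1.34 and 7.76 in facial tissue, with an adjusted p of 0.0863. Hand2 and Tbx3 fell below the filter: Hand2 was at 15.5 in the mandibular arch and at its floor in the other 5 libraries, and Tbx3 was at 7.97 and 19.3 in the mandibular and maxillary arches and at its floor in the other 4.

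The mesenchymal transition and neural crest list had 17 tested genes, 6 called lower in neural epithelium and 2 higher, with a median of -1.07. Ednra, the endothelin receptor that patterns the lower jaw, was at the floor in neural epithelium and stood at 14.1, 12.2 and 15.1 in facial tissue, at least 15.4-fold lower in neural epithelium (-4.25 ± 0.25, adjusted p = 0.000407). Crabp1, which binds retinoic acid in the cytoplasm, stood at 1, 1 and 2.86 in neural epithelium and at 140, 8.79 and 29.7 in facial tissue (-5.01 ± 0.89, adjusted p = 0.0165). Ednra was even across the facial tissues, and Crabp1 was concentrated in the lateral nasal prominence. Snai2, a repressor of epithelial genes in migrating crest, stood at 1.22, 1 and 1.67 in neural epithelium and at 10.8, 9.06 and 8.13 in facial tissue (-3.34 ± 0.24, adjusted p = 0.000747). Pdgfra, a growth factor receptor of mesenchyme, was at the floor in neural epithelium and stood at 6.89, 5.09 and 2.91 in facial tissue, at least 4.22-fold lower in neural epithelium (adjusted p = 0.00471). The list also holds Pdgfrb (-1.77) and Snai1 (-1.54) among its lower calls. Its 2 higher calls went the other way. Zeb2, a repressor of cadherin genes that also works in neural precursors, stood at 24.6, 26.4 and 22.6 in neural epithelium and at 1.56, 2.64 and 5.38 in facial tissue (2.66 ± 0.50, adjusted p = 0.0198). Sox6, a factor of both cartilage and neural progenitors, stood at 11.1, 5.54 and 5.74 in neural epithelium and at the floor in facial tissue, at least 3.48-fold higher (adjusted p = 0.0119). There were 4 higher calls in the list with the ratios as deposited. The call of Pdgfrb was lost without any 1 of the 3 neural libraries, and that of Zeb2 without one of these or the mandibular arch. That of Sox6 was lost without the lateral nasal prominence or the mandibular arch, and that of Crabp1 without the lateral nasal prominence, the lateral prominence or the central library.

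Every matrix gene called among the collagens, glycoproteins and matrix enzymes listed was lower in neural epithelium. Of 14 tested collagens, 7 were called lower and 0 higher, with a median log2 difference of -1.65. Col1a2, a chain of type I collagen, stood at 1, 1 and 2.34 in neural epithelium and at 46.3, 19.9 and 39.5 in facial tissue (-5.11 ± 0.40, adjusted p = 0.0011). Its partner Col1a1 stood at 1, 1 and 2.32 in neural epithelium and at 5.06, 6.86 and 6.2 in facial tissue (-2.64 ± 0.37, adjusted p = 0.00644). Both chains were above the floor only in the dorsal control among the neural libraries. Col3a1, a fibrillar collagen of soft tissue, was at the floor in neural epithelium and stood at 17.8, 16.1 and 12.8 in facial tissue, at least 18.5-fold lower in neural epithelium (-4.41 ± 0.28, adjusted p = 0.000434). Col4a1 and Col4a2, the basement membrane chains, were called lower by less (-2.09 and -2.16), as were Col26a1 (-3.20) and Col23a1 (-1.63). The calls of Col4a1 and Col4a2 were lost without the lateral nasal prominence, and that of Col23a1 without the mandibular arch or any 1 neural library.

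Of 18 tested proteoglycans and glycoproteins, 7 were called lower in neural epithelium and 0 higher (median -1.07). Mfap4, a protein of elastic microfibrils, stood at 1, 2.71 and 4.1 in neural epithelium and at 23.1, 17.2 and 33.7 in facial tissue (-3.88 ± 0.52, adjusted p = 0.00502). Nid2, a basement membrane linker, stood at 1.62, 1.71 and 1 in neural epithelium and at 7.8, 5.28 and 6.13 in facial tissue (-2.64 ± 0.30, adjusted p = 0.00304). Neither overlapped between the classes, which the calling favours. Gpc3, a glypican that binds growth factors, had 1, 2.23 and 6.86 in neural epithelium and 10.8, 18.2 and 7.35 in facial tissue, with an adjusted p of 0.0478 that passed in 1 of the 6 fits that left out a library and was lost with the ratios as deposited and with quantile normalization. Of 19 tested matrix enzymes, 3 were called lower in neural epithelium and 0 higher (median -0.58). Mmp2, a gelatinase, was at the floor in neural epithelium and stood at 6.19, 5.94 and 2.12 in facial tissue, at least 3.07-fold lower in neural epithelium (adjusted p = 0.00745). Pcolce, which speeds procollagen processing, stood at 1, 1.16 and 5.74 in neural epithelium and at 13.4, 14.4 and 11.9 in facial tissue (adjusted p = 0.0163). Its call was lost without the lateral nasal prominence, the lateral prominence or the central library. Bmp1, the procollagen protease, was called lower (-1.36); its call held only without the dorsal control when 1 library was left out, and was lost with the ratios as deposited.

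**Figure D3:**
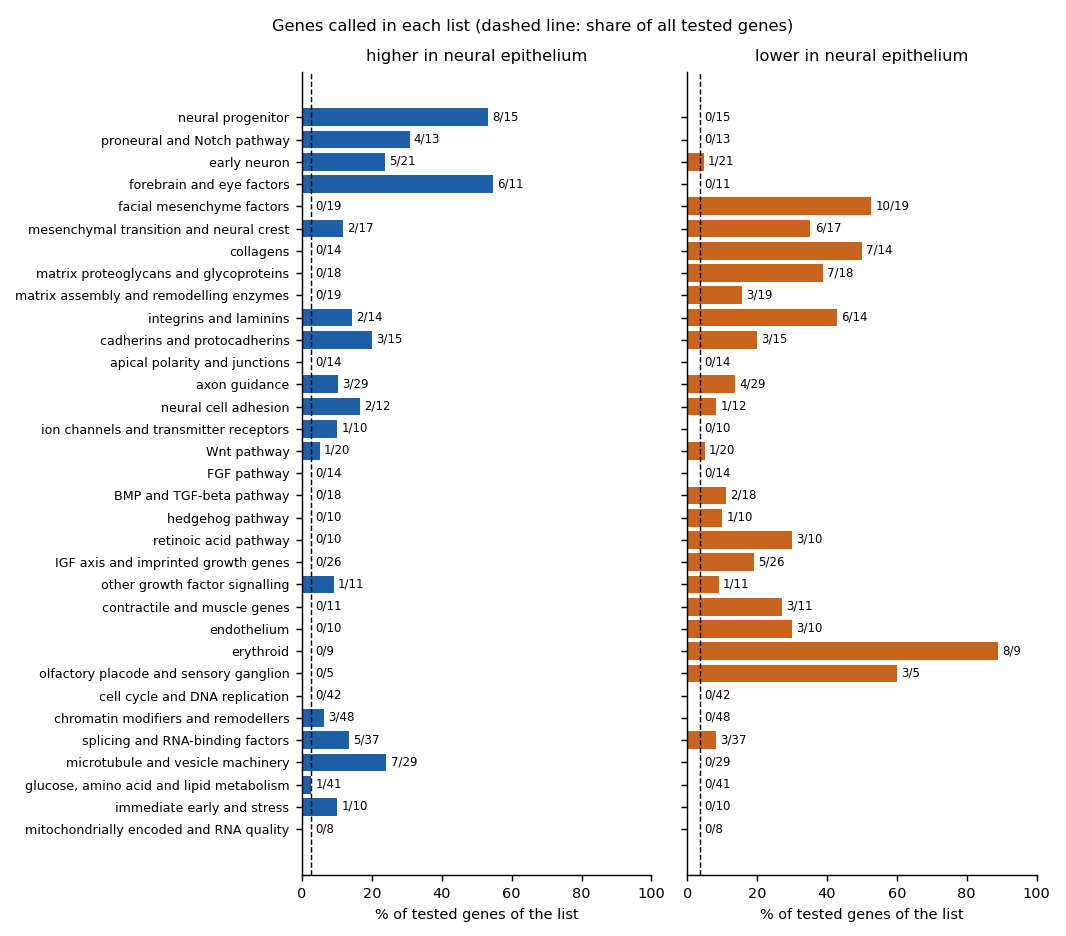
Share of the tested genes of each list with at least 5 tested genes that was called higher (left) or lower (right) in E10.5 neural epithelium, with the counts beside the bars. Dashed lines mark the shares over all tested genes, 2.6% and 3.55%; the erythroid list reaches 8 of 9 called lower.

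Adhesion receptors divided between the classes gene by gene. Of 14 tested integrins, laminins and their partners, 2 were called higher in neural epithelium and 6 lower (median -0.68). Itgb8, which activates TGF-beta around brain vessels, stood at 6.63, 7.4 and 5.45 in neural epithelium and at 1.05, 1 and 1 in facial tissue (2.20 ± 0.39, adjusted p = 0.0161). Dag1, the laminin receptor dystroglycan, stood at 5.81, 6.18 and 15 in neural epithelium and at 1.71, 1.4 and 1 in facial tissue (adjusted p = 0.0215). Itgb5 stood at 2.96, 1.79 and 1 in neural epithelium and at 13.4, 8.51 and 11.9 in facial tissue (-3.13 ± 0.41, adjusted p = 0.00471). Lamb1, a laminin chain, was at the floor in neural epithelium and stood at 3.59, 4.37 and 2.69 in facial tissue, at least 3.91-fold lower in neural epithelium (adjusted p = 0.00495). The lower calls also took in Itga8 (-2.38), Itga9 (-2.37), Lama4 (-1.98) and Itga5 (-1.11). The calls of Itgb8 and Dag1 were lost without the lateral nasal prominence or the mandibular arch, and that of Dag1 also without the central library. Those of Itga8 and Itga9 were lost without the lateral prominence or the central library, and that of Itga9 also without the lateral nasal prominence. The call of Itga5 held only without the maxillary arch when 1 library was left out, and was lost with the ratios as deposited.

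Among 15 tested cadherins and protocadherins, 3 were called higher in neural epithelium and 3 lower (median -0.28). Cdh2, the neural cadherin, stood at 10.9, 8.85 and 9.78 in neural epithelium and at 1, 1.8 and 1.39 in facial tissue (2.39 ± 0.34, adjusted p = 0.00644). Celsr2, a seven-pass cadherin of planar polarity, stood at 8.89, 14.9 and 10.1 in neural epithelium and at 1, 1 and 1.94 in facial tissue (2.68 ± 0.42, adjusted p = 0.00968). Cdh11, the mesenchymal cadherin, stood at 1, 1.01 and 2.04 in neural epithelium and at 5.84, 7.31 and 16.1 in facial tissue (-3.26 ± 0.48, adjusted p = 0.00785). Cdh2 and Cdh11 thus differed in opposite directions. Fat3 (2.22) was called higher, and Pcdh18 (-2.22) and Cdh5, the endothelial cadherin (-1.71), lower. The call of Fat3 was lost without the lateral nasal prominence or the mandibular arch, and that of Pcdh18 without the lateral nasal prominence, the lateral prominence or the dorsal control library.

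Guidance and neural adhesion genes were similarly divided. Of 29 tested guidance genes, 3 were called higher in neural epithelium and 4 lower (median -0.12), against 5 and 3 with the ratios as deposited. Sema5b, a transmembrane semaphorin, stood at 36.6, 49.6 and 11.2 in neural epithelium and at the floor in facial tissue, at least 6.81-fold higher (4.31 ± 0.82, adjusted p = 0.0213). Ephb2, an ephrin receptor, stood at 9.16, 19.6 and 9.44 in neural epithelium and at 2.22, 1 and 1.04 in facial tissue (2.71 ± 0.39, adjusted p = 0.00701). Sema3a, a secreted semaphorin that repels axons and crest, stood at 2.16, 1 and 1 in neural epithelium and at 6.99, 7.23 and 8.19 in facial tissue (-2.99 ± 0.38, adjusted p = 0.00443). The semaphorin receptor Plxnd1 (-2.30), Robo1 (-2.22) and Epha4 (-1.17) were also called lower, and Rgma (1.74) higher. The call of Sema5b was lost when any 1 facial library was left out, that of Plxnd1 without the central library and that of Robo1 without the lateral nasal prominence. The call of Rgma held only without the maxillary arch or the dorsal control, and that of Epha4 only without the maxillary arch; Epha4 was also lost with the ratios as deposited and with quantile normalization. In the neural adhesion list, 2 of 12 tested genes were called higher and 1 lower (median 0.69), against 4 and 1 with the ratios as deposited. Lrrn1, a leucine-rich repeat membrane protein, stood at 13.5, 41.9 and 16 in neural epithelium and at 1.28, 1.43 and 1.19 in facial tissue (3.54 ± 0.45, adjusted p = 0.00428). Flrt2, a repulsive ligand of the Unc5 receptors, had 2.12, 2.27 and 2.28 in neural epithelium and 6.68, 8.98 and 6.25 in facial tissue (-2.16 ± 0.27, adjusted p = 0.00438).

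Of 10 tested genes of the retinoic acid pathway, 3 were called lower in neural epithelium and 0 higher (median -1.27). Rarg, a retinoic acid receptor, was at the floor in neural epithelium and stood at 5.63, 4.52 and 5.02 in facial tissue, at least 6.16-fold lower in neural epithelium (-2.80 ± 0.22, adjusted p = 0.0011). Rara stood at 1, 1 and 1.58 in neural epithelium and at 3.95, 3.84 and 3.81 in facial tissue (-2.19 ± 0.28, adjusted p = 0.00428). Both receptors were nearly equal across the facial tissues. The third call of the list is Crabp1, described above.

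The IGF axis and imprinted growth genes had 26 tested members, 5 called lower in neural epithelium and 0 higher (median -0.17). The split turned with the scaling: 3 were lower and 6 higher with the ratios as deposited, and 4 and 1 with quantile normalization. Igf1, an insulin-like growth factor, stood at 1.84, 1 and 1 in neural epithelium and at 113, 11.7 and 78.1 in facial tissue (-5.73 ± 1.19, adjusted p = 0.0296). Igf2, the imprinted growth factor, stood at 1.34, 1 and 2.98 in neural epithelium and at 21.2, 111 and 10.8 in facial tissue (-4.68 ± 0.88, adjusted p = 0.0209). The mandibular arch was lowest of the facial libraries for Igf1 and highest for Igf2. H19, the imprinted RNA next to Igf2, had 2.64, 2.17 and 1.44 in neural epithelium and 8.25, 19.8 and 3.83 in facial tissue (adjusted p = 0.0358). H19 and Igf2 shared the same order among the facial libraries. The call of Igf1 was lost without any 1 neural library. That of Igf2 was lost without the lateral nasal prominence, the mandibular arch, the lateral prominence or the central library, and that of H19 without any 1 library other than the maxillary arch.

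In the Wnt list 1 of 20 tested genes was called higher in neural epithelium and 1 lower (median -0.53), against 2.6% and 3.55% of all tested genes. Counts this small, here and in the BMP, hedgehog and FGF lists that follow, do not set a list apart from those shares. Fzd3, a Frizzled receptor needed for axon tracts, stood at 5.79, 8.73 and 12.9 in neural epithelium and at 1.86, 1 and 2.14 in facial tissue (1.99 ± 0.40, adjusted p = 0.0258). Ror2, a receptor for Wnt5a, was at the floor in neural epithelium and stood at 7.83, 3.91 and 4.17 in facial tissue, at least 5.38-fold lower in neural epithelium (adjusted p = 0.00158). The call of Fzd3 was lost without the lateral nasal prominence, the mandibular arch, the central or the dorsal control library, and that of Ror2 was kept whichever library was left out. Of 18 BMP and TGF-beta genes, 2 were called lower and 0 higher (median -0.27): Id2, a target that blocks helix-loop-helix factors (-2.76), and Tgfb2 (-1.64). Of 10 hedgehog genes, 1 was called lower and 0 higher (median -0.31): Gas1, a hedgehog co-receptor (-2.48), whose call, like that of Tgfb2, was lost with the ratios as deposited and with quantile normalization. When 1 library was left out, the call of Gas1 held only without the dorsal control and that of Tgfb2 only without the mandibular or the maxillary arch. Ptch1, the hedgehog receptor and target, had 5.85, 11.9 and 27.4 in neural epithelium and 1, 4.75 and 3.56 in facial tissue and did not pass (adjusted p = 0.182). Of 14 FGF genes 0 were called in limma, and 5 had an unadjusted p under 0.05 (median 0.30); with the ratios as deposited 2 were called higher.

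Of 9 tested erythroid genes, genes of red blood cells, 8 were called lower in neural epithelium and 0 higher (median -2.79). Hbb-bh1, an embryonic beta-globin, stood at 3.97, 8.02 and 6.93 in neural epithelium and at 288, 170 and 30.1 in facial tissue (-4.70 ± 0.69, adjusted p = 0.00749). Hbb-y, another embryonic globin, stood at 20.4, 21.2 and 14.8 in neural epithelium and at 474, 296 and 96.4 in facial tissue (-4.15 ± 0.51, adjusted p = 0.00383). Globin genes are near copies, so reads may be divided between them and their single values are uncertain. The summed level of the 16 measured erythroid genes was 81.9 to 120 in neural epithelium and 441 to 1546 in facial tissue. It was lowest of the facial libraries in the maxillary arch. Globins make up much of this sum, with Hba-x alone at 602 in the lateral nasal prominence. For the endothelium list, 3 of 10 tested genes were called lower in neural epithelium and 0 higher (median -1.13). Emcn, a sialomucin of veins and capillaries, was at the floor in neural epithelium and stood at 5.02, 4.2 and 5.7 in facial tissue, at least 5.49-fold lower in neural epithelium (adjusted p = 0.00189). The summed level of the 20 measured endothelial genes was 20 to 24.5 in neural epithelium and 35.1 to 39 in facial tissue. This sum is 20 when every gene is at its floor, as in the dorsal control. Pecam1, a general endothelial marker, overlapped between the classes (4.36, 3.16 and 1 in neural epithelium against 3.64, 3.74 and 2.85 in facial tissue). The part of these cells in the matrix, laminin and cadherin differences was not tested. Markers of surface epithelium were near the floor in both classes: 0 of 18 measured genes were tested, 15 to 17 of them were at the floor in the neural libraries and 16 to 18 in the facial libraries, and Krt8 and Trp63 were at the floor in all 6. Of 6 measured macrophage and platelet genes, 1 was tested and 0 were called. Of 11 tested contractile and muscle genes, 3 were called lower in neural epithelium and 0 higher, namely Cnn2, S100a11 and Cald1 (log2 differences -2.54, -2.09 and -2.06). With the ratios as deposited 1 was called lower, and the calls of Cnn2 and Cald1 were lost. When 1 library was left out, the call of Cnn2 held only without the maxillary arch and that of Cald1 only without the central library.

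Of 42 tested cell cycle and replication genes, 0 were called in limma (5 at an unadjusted p under 0.05, median 0.12), against 2.6% of all tested genes called higher and 3.55% called lower, and 39 lay within 2-fold. With the ratios as deposited 3 of them were called higher, and with quantile normalization 2. Of 41 metabolic genes, 1 was called higher in neural epithelium and 0 lower (median 0.11). It was Slc2a1, the main glucose carrier of the early brain and its barrier, with 4.08, 3.22 and 4.4 in neural epithelium and 1.54, 1.05 and 1 in facial tissue (1.26 ± 0.26, adjusted p = 0.0304). When 1 library was left out, this call held only without the maxillary arch. In the ratios as deposited 3 metabolic genes were called higher. Of 48 chromatin genes, 44 lay within 2-fold. No share within 2-fold over all tested genes is at hand to set beside this count or that of the cell cycle list. The apical polarity list, genes that build the inner face of epithelia, had 0 calls among 14 tested (3 at an unadjusted p under 0.05, median -0.13). The mitochondrially encoded and RNA quality list had 0 calls among 8 tested (0 at an unadjusted p under 0.05, median -0.60), and its summed level was 27.9 to 38.3 in neural epithelium and 22.8, 25.7 and 83.7 in facial tissue, where the maxillary arch stood apart.

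The regions of a class also differed among themselves. For genes called higher, the range over the 3 neural libraries had a median of 0.65 on the log2 scale, and 180 of the 247 stayed within 2-fold. The gene was highest in the dorsal control in 109, in the lateral prominence in 70 and in the central library in 68. Six3os1, Six3 and Nr2e1 had wide ranges (11.9-fold, 8.87-fold and 7.54-fold). For genes called lower, the range over the 3 facial libraries had a median of 0.70, and 236 of the 338 stayed within 2-fold. Crabp1 and Igf2 had the widest ranges there, 12.7-fold and 9.81-fold. A call needs a difference that is large against the spread within the classes, so these ranges are partly fixed by the calling. Without the ranges of all tested genes beside them, they do not show how alike the regions are.

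Many of the genes kept their direction in earlier libraries that the E10.5 fit did not use. E8.5 neural epithelium (caudal brain, floor plate and non-floor plate) was compared with E9.5 mesenchymal tissue (cranial mesenchyme, mandibular arch and maxillary arch). Stage and tissue cannot be told apart in this comparison. Of 11187 genes tested, 357 were higher in the E8.5 neural libraries (3.19%) and 374 lower (3.34%). Of the 239 genes called higher in E10.5 neural epithelium that were also tested earlier, 92 were called higher there too, which is 38.5% of these genes and 30.8% of the 299 earlier higher calls tested at both stages. Of the 317 called lower, 106 were called lower earlier, which is 33.4% of these and 32.3% of the 328 earlier lower calls. The sign was the same in 210 of 239 (87.9%) and in 228 of 317 genes (71.9%). No share of equal signs over all genes tested in both comparisons is at hand to set beside these. Otx2 (earlier log2 difference 4.50, adjusted p = 0.0217), Sox2 (3.80, adjusted p = 0.033), Prrx1 (-4.94, adjusted p = 0.00378) and Twist1 (-4.38, adjusted p = 0.00181) were called at both stages. Several leading genes were not called in the earlier libraries: Ckb (-0.74, adjusted p = 0.316), Nes (-0.35, adjusted p = 0.682), Notch1 (-1.23, adjusted p = 0.201) and Col1a1 (0.20, adjusted p = 0.915). A difference between the stages was not tested for these. The 5 genes called in opposite directions were Hey1, Vim and Stk39, higher in E10.5 neural epithelium but lower in the E8.5 neural libraries (-1.82, -2.71 and -1.41), and mmu-mir-805 and Gm15414, with the reverse pattern. They are named because they are few, after their values were seen.

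**Figure D4:**
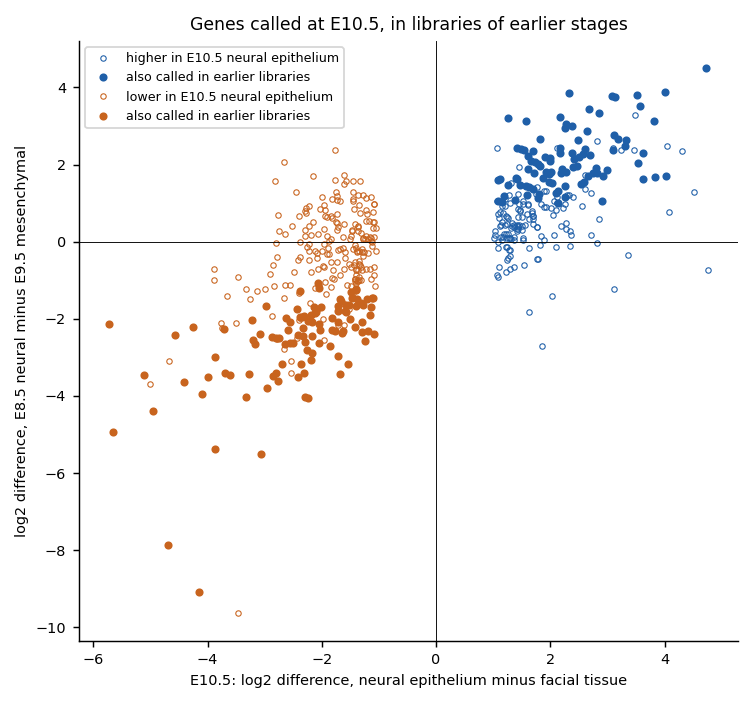
Log2 difference of the genes called at E10.5 (x axis, neural epithelium minus facial tissue) against their log2 difference between E8.5 neural and E9.5 mesenchymal libraries (y axis). Filled points are called in the same direction in both comparisons, 92 higher (blue) and 106 lower (orange).

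The other libraries were placed between the classes gene by gene, with the facial mean at 0 and the neural mean at 1. The 3 E8.5 neural libraries had medians of 0.49 to 0.56 over the genes called higher and 0.82 to 1.05 over those called lower. The 3 E9.5 mesenchymal libraries had -0.19 to 0.02 and 0.24 to 0.41. The olfactory pit lay between the classes at 0.60 and 0.64. The library labelled medial nasal prominence lay at 0.97 and 1.15, at the neural side for both sets. In it Otx2 stood at 52.3, Sox2 at 26.1 and Ckb at 188, while Prrx1, Twist1 and Col1a2 were each at 1. With that library added to the facial class, 0 genes passed in either direction in limma. Then 1048 of 10184 genes had an unadjusted p under 0.05 and the lowest adjusted p was 0.383. All 585 genes kept their sign, with medians of 1.41 and -1.32 against 1.79 and -1.83 without it. The facial class still held the same 3 libraries that gave the calls. The kept signs and smaller medians were therefore largely fixed in advance and are no support for the calls.

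**Figure D5:**
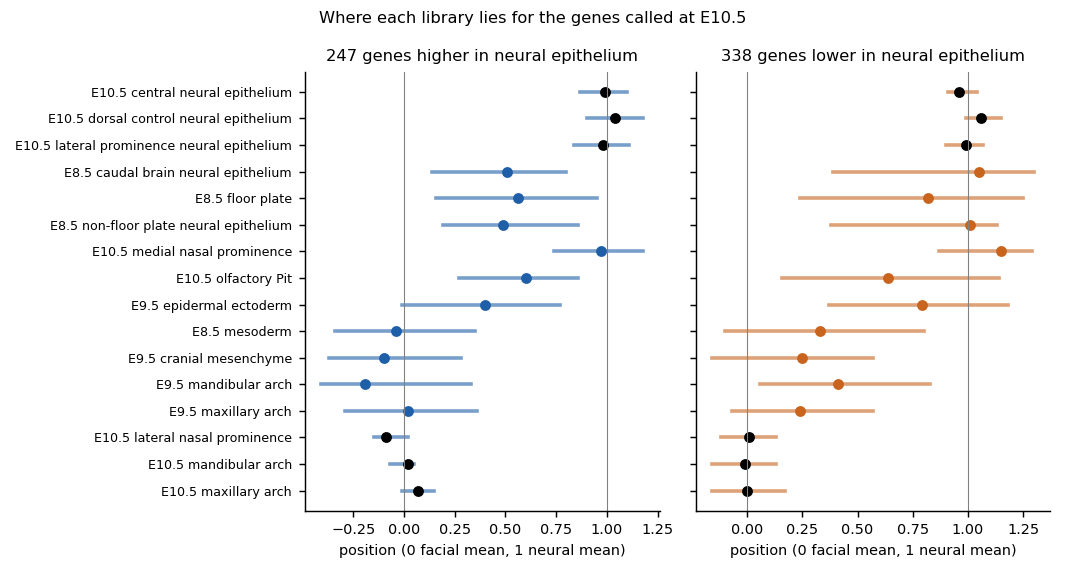
Median position of each of the 16 libraries over the genes called higher (left) and lower (right) in E10.5 neural epithelium, on a scale where 0 is the mean of the 3 facial libraries and 1 that of the 3 neural libraries; lines span the middle 50% of genes and black points mark libraries in the fit. The library labelled medial nasal prominence lies at 0.97 and 1.15.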

How the data were processed

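Total RNA of dissected regions was isolated with Zymo's ZR RNA MicroPrep kit and sequenced in single 50-base reads (Illumina Hi-Seq 2500), per the labels' protocols. The submitters' processing notes name Bowtie, TopHat, TopHat2, Cufflinks and mm9. Versions, annotation, strand and gene filters: not given in the sources used here. Deposited values, as the authors made them, were ratios: each gene's median over the 16 libraries was 1 within 1.5e-07, as worked out from the values. No source used here gives the unit before that division. No counts were given, so the depth of each library is unknown and no counting interval was computed.

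Each library's shift was the median, over the 7082 genes whose lowest value is not shared, of log2 value minus the gene's mean over the 6 libraries. It was subtracted before limma 3.58.1 in R 4.3.3 was run with a mean-variance trend on genes above the floor in at least 3 of the 6 libraries, with no pseudocount. Calls needed a Benjamini-Hochberg adjusted p under 0.05 over all genes tested and at least 2-fold. A fold given as "at least" is the lowest library of the higher class over the highest of the class at its floor, after the shift. The shift was subtracted from floor values too. This fold therefore lies above the ratio of deposited levels for genes called lower and under it for genes called higher. It is a bound under this scaling only. Other log2 differences that include libraries at the floor understate the change where the floor hides lower values. For genes called lower the shift works the other way, so their differences may overstate it. The code was tested on simulated data.

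Named genes were the 15 largest differences in each direction with non-overlapping classes, and up to 4 called members a direction of 38 gene lists (915 of 1034 symbols measured), plus the 4 class markers. Other members are named where a list is described, and those that did not pass were chosen after their values were seen. The comparison, the markers and the lists were chosen with earlier results of these data known. Alternatives were other shifts, filters, variance models, thresholds, a pseudocount of 0.1, the medial nasal prominence added, and each library left out in turn. Some genes are not reported here. Names follow the deposited tables.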

Additional observations from a re-analysis of the deposited data

Results flagged for a closer look

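The library labelled medial nasal prominence, which the fit did not use, carried the signal of the neural class. On a scale where the facial mean is 0 and the neural mean is 1, its median position was 0.97 over the genes called higher in neural epithelium and 1.15 over those called lower. It was flagged because a library labelled as facial and outside the fit lay close to or beyond the neural mean. It had been left out of the fit for its brain genes, so these values restate that choice and support nothing further. Its level was 32.4 for Lhx2, while Twist1 and Prrx1 were at 1. The reason was not tested.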

How the results depend on the processing

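The split into 247 genes higher and 338 lower depended on the processing. Higher and lower calls numbered 910 and 183 with the ratios as deposited, 384 and 284 with quantile normalization, 109 and 133 with genes above the floor in all 6 libraries, 94 and 110 with genes whose lowest value is unshared, 102 and 142 at 4-fold or more, and 0 and 0 with the medial nasal prominence added. The 4-fold threshold passes fewer genes by construction. Of the calls, 140 higher and 160 lower were on genes above the floor in all 6 libraries, so fewer genes tested accounts for part of the drop under that filter; the cause of the rest, and of the other changes, was not tested. Leaving out 1 library gave 81 to 306 higher and 131 to 657 lower calls. The extremes were the fit without the lateral nasal prominence (81 higher) or the lateral prominence neural epithelium (131 lower) and that without the maxillary arch (306 higher, 657 lower). Of the calls, 66 higher and 87 lower passed in each of the 6 fits that left out 1 library, as did 57 of 112 named rows. Among named rows, 101 kept their call with the ratios as deposited, 107 with quantile normalization and 96 with no filter, and none changed sign. For the earlier stages the 357 higher and 374 lower calls became 224 and 458 with the ratios as deposited, 207 and 222 with genes above the floor in all 6 libraries, and 109 to 232 and 126 to 226 with 1 library left out. No paired analysis was possible because the labels give no replicate numbers. With 1 library a region and no counts, neither depth nor repeat error is known.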

Other observations

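Genes of the ribosome and of mitochondrial respiration were also among the calls, and no list covered them. They were grouped by symbol after the calls were seen, so the counts are a description and no test. Of 79 tested cytosolic ribosomal protein genes, 9 were called lower in neural epithelium and 0 higher, against 3.55% and 2.6% of all tested genes. The median log2 difference of the 79 genes was -1.45. Rpl31 had a log2 difference of -1.78 (adjusted p = 0.00925) and Rplp1 one of -2.41 (adjusted p = 0.0312). Their median log2 value relative to each gene's mean was -0.38, -0.83 and -0.98 in the lateral prominence, central and dorsal control neural libraries, and 1.26, 1.40 and -0.37 in the lateral nasal prominence, mandibular arch and maxillary arch. The maxillary arch thus lay at the level of the neural libraries. Without it, 67 of the 79 genes were called lower (median -2.05), while without the lateral nasal prominence or the mandibular arch 1 was (medians -1.19 and -1.14). With the ratios as deposited 2 were called lower. Many of these genes have processed copies in the genome, which makes their single values uncertain.

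Nuclear-encoded subunits of the respiratory chain and ATP synthase had the same arrangement of libraries. Of 85 tested, 7 were called lower in neural epithelium and 0 higher (median -1.0), among them Cox7b (-2.46), Atp5b (-2.03) and Uqcrb (-1.91), and 47 were called lower without the maxillary arch, but 0 without the lateral nasal prominence or the mandibular arch and 3 with the ratios as deposited. For mitochondrial ribosomal proteins 4 of 69 were called lower and 0 higher (median -0.72), not far from the 3.55% lower and 2.6% higher of all tested genes. The count of lower calls was 19 without the maxillary arch. It was 0 without the lateral nasal prominence or the mandibular arch and 0 with the ratios as deposited. In the E8.5 neural and E9.5 mesenchymal libraries, 0 of these 3 families' genes were called in limma in either direction, and the family medians were 0.55, 0.31 and 0.07. The part of RNA quality or library preparation in this pattern was not tested; the mitochondrially encoded list stood apart in the maxillary arch as well, at a summed level of 83.7 against 22.8 to 38.3 in the other 5 libraries.

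The length of the gene body was also looked up, with no test. On GRCm38 (GENCODE M21), the median span of the protein-coding genes was 58.9 kb for those called higher, 28.4 kb for those called lower and 27.9 kb for all tested. The deposited values cannot show whether length entered their calculation.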
